A study of Mus musculus with 2 samples.

Results

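The granzymes and perforin were read by 12 of the 22690 probe sets of an oligonucleotide array, hybridised with total RNA from mouse femur. Included was every probe set whose gene symbols in the platform annotation all belong to 9 genes, Gzma, Gzmb, Gzmc, Gzmd, Gzme, Gzmf, Gzmg, Gzmk and Prf1, of 13319 genes annotated. A probe set is a group of short oligonucleotides read together as 1 value. The group was chosen by the intensities of the Gzme and Gzmd probe sets, which read higher in the allograft sample, so the values below describe that pattern and are no test of it. One array held the allograft sample and the other the autograft sample, both from the femur of C57BL/6 mice. In an allograft, donor and recipient are genetically different animals of the same species, whereas an autograft returns an animal's own tissue. The labels do not say whether C57BL/6 was the donor or the recipient strain, how long after grafting the bone was taken, or how many animals gave each sample. Each graft type has 1 array, so no difference could be checked against replicates or tested, and this number sets the limit on precision.

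Granzymes are serine proteases stored in the granules of cytotoxic T cells and natural killer cells, and perforin, the product of Prf1, forms the pores through which they reach the cytosol of a target cell. Granzyme B cleaves caspases and other proteins after aspartate and triggers apoptosis, while granzymes A and K have trypsin-like specificity. Granzymes C, D, E, F and G belong to a rodent expansion of the granzyme B branch, known in the mouse from activated cytotoxic lymphocytes and from the natural killer cells of the pregnant uterus. In the RefSeq annotation of GRCm38.p6, 6 of the 9 genes lie side by side on chromosome 14 in the order Gzme, Gzmd, Gzmg, Gzmf, Gzmc and Gzmb, with Gzmn between Gzmg and Gzmf. Gzma and Gzmk lie on chromosome 13 and Prf1 on chromosome 10.

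Some of these neighbours are close copies of each other in the sequence before their starts. Their transcripts were not compared here. RefSeq windows of 250 bases upstream of the annotated start were found for all 9 genes. Those of Gzmd and Gzme were identical in 238 of 250 aligned columns (95.2%), and the 10 pairs among Gzmc, Gzmd, Gzme, Gzmf and Gzmg were 82.4% to 95.2% identical. The other 26 pairs of members were 47.1% to 54.0% identical. The windows of Gzme and Gzmd are shown because 1 probe set reads both genes, and that of Gzmb because it is the neighbour of the cluster without this likeness. All 3 are from GRCm38.p6, minus strand, 5′ to 3′, at chr14:56120626-56120875 for Gzme, chr14:56132594-56132843 for Gzmd and chr14:56262335-56262584 for Gzmb. Capitals mark the longest run common to Gzmc, Gzmd, Gzme, Gzmf and Gzmg, which has 20 bases, begins at base 201 of the Gzme window and at base 202 of the Gzmd window, and is not in the Gzmb window.
Gzme: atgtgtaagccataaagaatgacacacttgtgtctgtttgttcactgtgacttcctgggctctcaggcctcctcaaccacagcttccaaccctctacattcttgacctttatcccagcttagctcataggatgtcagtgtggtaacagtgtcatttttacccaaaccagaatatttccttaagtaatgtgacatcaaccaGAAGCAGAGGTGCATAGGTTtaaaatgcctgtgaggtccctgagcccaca
Gzmd: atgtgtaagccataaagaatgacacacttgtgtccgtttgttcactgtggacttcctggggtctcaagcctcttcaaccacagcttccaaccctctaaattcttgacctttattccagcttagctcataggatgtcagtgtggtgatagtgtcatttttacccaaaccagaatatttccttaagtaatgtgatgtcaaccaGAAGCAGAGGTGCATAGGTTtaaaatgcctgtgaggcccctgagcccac
Gzmb: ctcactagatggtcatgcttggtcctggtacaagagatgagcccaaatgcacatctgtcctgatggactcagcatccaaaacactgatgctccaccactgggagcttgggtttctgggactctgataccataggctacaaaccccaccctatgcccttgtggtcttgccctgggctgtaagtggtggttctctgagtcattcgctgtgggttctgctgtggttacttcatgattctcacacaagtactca

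Searched on both strands, the common run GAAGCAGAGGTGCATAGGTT occurred in 5 of 32851 RefSeq windows of the same length, those of the 5 genes themselves. The core letters of RUNX binding sites, TGTGGT, occurred in the windows of 8 of the 9 members, all but Gzmk, and in 14% of all windows. The cAMP response element, TGACGTCA, occurred in those of Gzmc, Gzmf and Gzmg and in 1.55% of all windows. Both motifs were chosen after the sequences were seen, no match overlapped the common run or the other motif, and the windows of the 5 similar genes are not independent of each other. A match is a description of letters and not of a site in use.

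Of the 12 probe sets, only the 2 designed on Gzme were at least 2-fold apart with both readings above the floor defined below. Gzma and Gzmb also read higher in the allograft sample, at lower levels, and are given further on. Probe set 1421227_at, annotated to both Gzme and Gzmd, read 1231.5 in the allograft against 306.9 in the autograft, a 4.01-fold difference and a log2 ratio of allograft over autograft of 2.0. Probe set 1450171_x_at, annotated to Gzme alone, read 724 in the allograft against 250 in the autograft, a log2 ratio of 1.53. Both were built on a transcript record of Gzme, and both read higher in the allograft sample. The floor used here was 175.2, the median intensity over both arrays with controls left out, and values from there upwards count as above it. Intensities differ between probe sets with the oligonucleotides used, so a probe set's level is compared between the arrays. The floor, the choice of probe sets by mean intensity, the nearest readings and the summed intensities do use levels across probe sets. They depend on the oligonucleotides too.

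**Figure D1:**
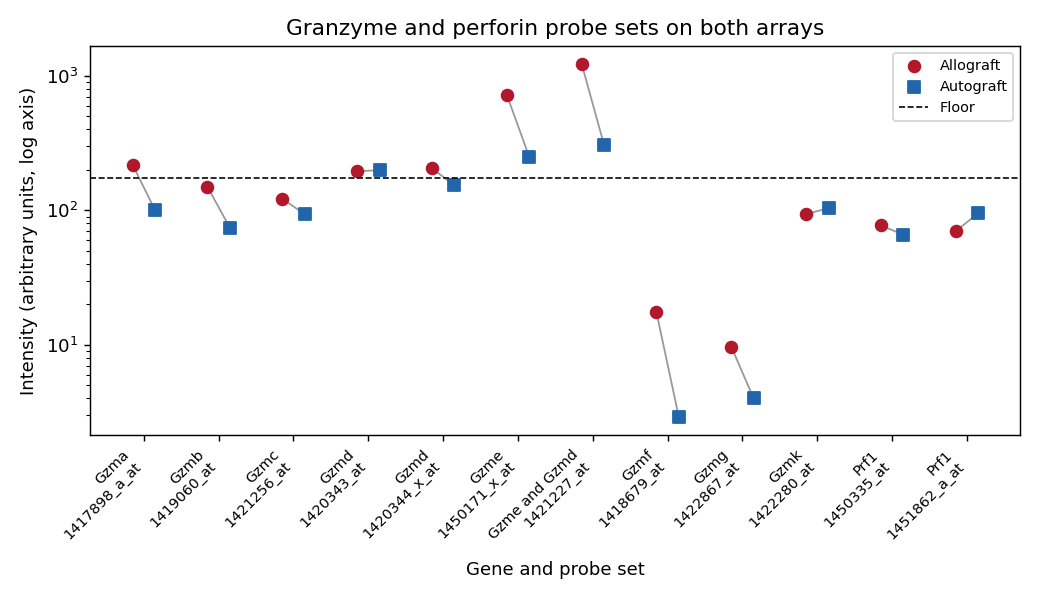
Intensity of each of the 12 granzyme and perforin probe sets on a log axis, with the allograft array as red circles, the autograft array as blue squares and the floor of 175.2 as a dashed line. Probe sets 1421227_at (allograft 1231.5, autograft 306.9) and 1450171_x_at (allograft 724, autograft 250) stand well apart between the arrays above the floor, and 7 probe sets lie below it on both.

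The probe sets built on a Gzmd record did not show this gap. Their readings lay near the floor of 175.2, so they cannot say whether Gzmd itself differed between the arrays. Probe set 1420343_at read 195.5 in the allograft against 198.6 in the autograft, a log2 ratio of -0.02. The other, 1420344_x_at, read 205.4 in the allograft against 153.4 in the autograft, so it passed the floor on the allograft array only and was at least 1.17-fold higher there. The log2 ratio of 1421227_at exceeded that of 1420343_at by 2.03, although the annotation gives Gzmd for both. For comparison, 1925 genes had at least 2 probe sets of 1 symbol above the floor on both arrays, and the 2 of highest mean intensity were taken. The difference between their log2 ratios had an SD of 0.43 and was 2.03 or more in size in 0.156% of genes. The difference between 1421227_at and 1450171_x_at, 0.47, was reached or passed in 24.7% of these genes. Probe set 1421227_at has 2 symbols and is one the group was chosen by, so these shares are no test of either difference. The pairs of the 1925 genes were also not matched in intensity to the Gzmd probe sets. The ending _x_at marks probe sets with some oligonucleotides that match other transcripts as well. Since 1421227_at is annotated to Gzmd and Gzme alike, how much of its reading came from either gene cannot be told apart, and the part of other granzymes of the cluster was not tested.

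Gzma, the trypsin-like granzyme A, was the fifth probe set above the floor. It read 218.1 in the allograft against 100.6 in the autograft, which makes it at least 1.24-fold higher in the allograft sample, the bound being set against the floor. Gzmb, which encodes granzyme B, read 149.5 in the allograft against 74.4 in the autograft, below the floor on both, so no fold is given at this floor. With the floor at 50.6, the 25th percentile of intensities, Gzma was 2.17-fold and Gzmb 2.01-fold higher in the allograft sample. Of the other genes below the main floor, Gzmc was then 1.30-fold higher and Gzmk 1.10-fold lower. Prf1 was 1.17-fold higher by 1450335_at and 1.36-fold lower by 1451862_a_at. Gzmf and Gzmg stayed below this floor on both arrays.

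The remaining 6 probe sets were also below the floor on both arrays. The 2 for Prf1, the perforin gene, read 77.3 and 70 in the allograft, against 65.9 and 95.3 in the autograft, for 1450335_at and 1451862_a_at in the same order, so the array with the higher reading differed between them. Gzmk, which encodes granzyme K, read 93.9 in the allograft against 103.7 in the autograft. Neither perforin nor granzyme K had a reading above the floor on either array. Among the neighbours of Gzme, Gzmc read 122 in the allograft against 93.6 in the autograft. Gzmf read 17.5 in the allograft against 2.9 in the autograft. Gzmg read 9.7 in the allograft against 4 in the autograft. The last 2 pairs are far apart as ratios but lie at the bottom of the scale. Of 10639 probe sets below the floor on both arrays with an autograft value above 0, 8.69% read higher by 2-fold or more on the allograft array and 17% lower by as much, and their log2 ratios had an SD of 1.06.

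In all, 3 of the 12 probe sets passed the floor on both arrays, 2 on the allograft array alone, 0 on the autograft array alone and 7 on neither. At least 2-fold higher in the allograft sample were 2 of 12, and 0 of 12 were lower by as much, where of all 22626 non-control probe sets 0.605% were higher and 0.389% lower by that rule. Over the 11987 probe sets above the floor on at least 1 array the shares were 1.14% and 0.734%. These members were picked for that contrast, so the shares are set side by side and nothing is read from them. With the floor at the 25th percentile 4 of the 12 were at least 2-fold higher, where of all non-control probe sets 1.38% were higher and 2.05% lower, so that the larger share was then the lower one. With the floor at the 75th percentile 1 of the 12 was higher, where 0.349% of all were. The median log2 ratio of the 5 probe sets that passed the floor on an array or both was 0.32, which is the bound of Gzma, and that of all 11987 such probe sets was -0.06. Of the 5, 2 passed through the allograft array only and 2 are those the group was chosen by, so these medians show nothing about the members. Over all 12, with those below the floor on both arrays at 0, the median was 0. Without regard to the floor, 9 of the 12 read higher and 3 lower on the allograft array.

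**Figure D2:**
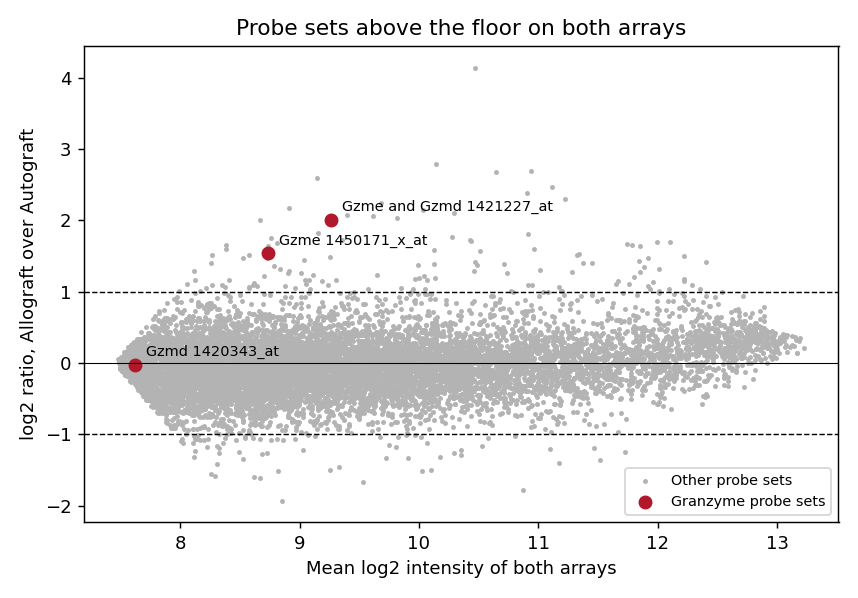
Log2 ratio of allograft over autograft against the mean log2 intensity of both arrays for the 10640 probe sets above the floor on both, with 2-fold differences as dashed lines and the 3 granzyme probe sets in red. The Gzme and Gzmd probe set at 2.0 and the Gzme probe set at 1.53 lie above the upper line, and the Gzmd probe set at -0.02 lies in the body of the points.

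Among the 10640 probe sets that passed the floor on both arrays, 1421227_at had the 16th highest log2 ratio and 1450171_x_at the 37th. The group was chosen because these probe sets read higher in the allograft sample. Their places, and the counts of ratios as high given next, therefore describe that choice and are no test. The 1000 probe sets nearest to 1421227_at in mean intensity had a median log2 ratio of -0.08, with the central 95% between -0.78 and 0.71, and 2 of them had a ratio as high. Of the 1000 nearest to 1450171_x_at, 4 had a ratio as high, and the central 95% lay between -0.83 and 0.68. Of the 16 highest ratios, that of 1421227_at included, 7 came from probe sets with the ending _x_at. Such probe sets read higher in the allograft by 2-fold or more in 3.4% of 971 cases above the floor on both arrays, and the others in 0.941% of 9669. Probe set 1421227_at does not have that ending, and 1450171_x_at does. The part that oligonucleotides shared between transcripts have in the reading of 1450171_x_at was not tested.

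The readings most like those of 1421227_at, by Euclidean distance in the plane of both log2 intensities among probe sets with 1 gene symbol, were of Retn, Cyp2e1, Jchain, Tspan33 and Iglv1. Retn, which encodes the secreted protein resistin, read 1381.2 in the allograft against 328.2 in the autograft, at a distance of 0.19. Cyp2e1, a cytochrome P450, read 1071.6 in the allograft against 302.8 in the autograft (distance 0.20). Jchain, which joins immunoglobulin units, read 1193.2 in the allograft against 361 in the autograft (distance 0.24). Tspan33, a tetraspanin, read 1020.7 in the allograft against 366 in the autograft (distance 0.37), and the immunoglobulin light chain gene Iglv1 lay at a distance of 0.45. The likeness rests on 2 arrays and says only that these readings were close.

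Ctsg and Mcpt8, the nearest genes to Gzme on the other side, also encode granule proteases and read higher in the allograft sample too. Neutrophil marker genes that are not among these neighbours, such as Mpo (log2 ratio 0.86), did so as well. The part of gene position was not tested. Ctsg, the cathepsin G of neutrophil granules and the immediate neighbour of Gzme, read 2428.7 in the allograft against 1472.3 in the autograft, a log2 ratio of 0.72. Mcpt8, the protease of mouse basophils next to Ctsg, read 519.3 in the allograft against 182.2 in the autograft, a log2 ratio of 1.51. Mcpt4, a mast cell chymase gene beyond it, was below the floor on both arrays, at 23.1 in the allograft against 61.1 in the autograft. On the far side, Gzmn, which lies among the granzymes but is no member here, read 6.4 in the allograft against 6 in the autograft. Along the cluster, 2-fold differences above the floor were thus found for the Mcpt8 probe set and for the 2 built on Gzme.

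**Figure D3:**
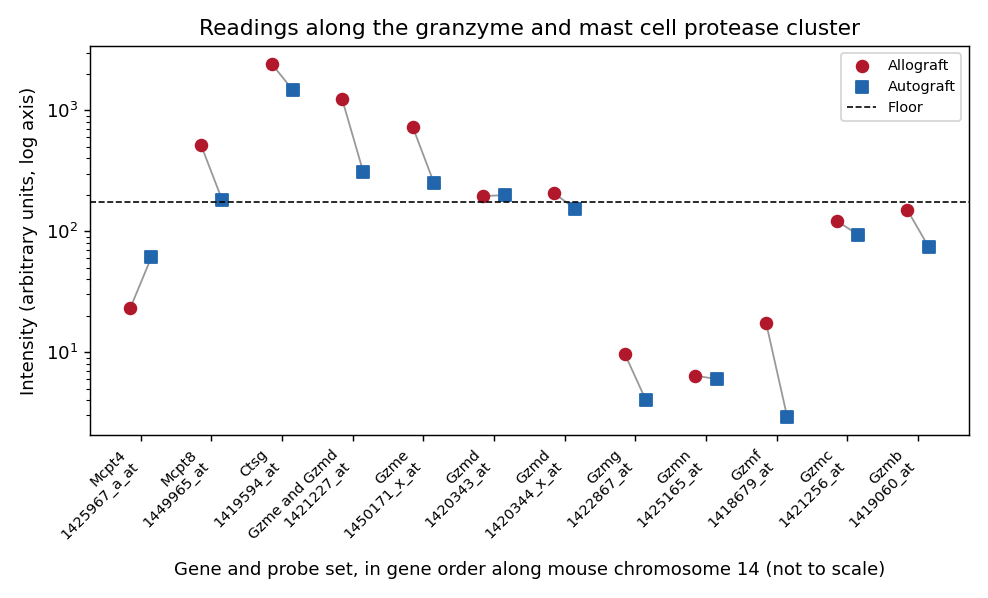
Intensities of the probe sets for Mcpt4, Mcpt8, Ctsg and the granzymes of chromosome 14, in gene order and not to scale, on a log axis, with the allograft array as red circles, the autograft array as blue squares and the floor as a dashed line. The Mcpt8 probe set (allograft 519.3, autograft 182.2) and the 2 built on Gzme differ by at least 2-fold above the floor, while those from Gzmg to Gzmb are below the floor on both arrays.

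Most markers of the cells that usually carry granzymes were not above the floor. Of 8 probe sets for the T cell markers Cd3d, Cd3e, Cd3g, Cd4, Cd8a and Cd8b1, 0 were above it on either array, and their values ran from 2.5 to 53.9 on the allograft array against 3.6 to 106.4 on the autograft array. The summed intensity of these 8 was 266.1 in the allograft against 406.5 in the autograft. All probe sets below the floor on both arrays leaned the same way, with 17% at least 2-fold lower in the allograft and 8.69% higher. Nothing about T cell number is therefore read from this sum. Cd3e, a subunit of the T cell receptor complex, read 35.2 in the allograft against 99.9 in the autograft. Cd8a, the coreceptor of cytotoxic T cells, read 23 and 53.9 on the allograft array, against 11.8 and 106.4 on the autograft array for the same pair of probe sets.

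Of 8 natural killer marker probe sets, 2 were above the floor on each array, those of Nkg7 and Klrd1. Nkg7, a granule membrane protein of cytotoxic cells, read 374.5 in the allograft against 216.2 in the autograft, a log2 ratio of 0.79. Klrd1, which encodes the receptor chain CD94, read 214.4 in the allograft against 181.2 in the autograft, a log2 ratio of 0.24. The natural killer receptor Ncr1, at 95.2 in the allograft against 136.9 in the autograft, was below the floor, as were Klrk1, Il2rb and Eomes. The summed intensity of the 8 was 1050.4 in the allograft against 872.5 in the autograft. Most of the 8 were below the floor, and Nkg7 had the largest difference between the arrays, so the sum rests largely on it. In RNA from whole bone, more cells of a type and more RNA per cell cannot be told apart.

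Markers of other granule-bearing cells were read as well. All 8 neutrophil marker probe sets passed the floor on both arrays with a log2 ratio above 0 and a median of 0.42, and their summed intensity was 39543.8 in the allograft against 29630.5 in the autograft. Of 13 mast cell and basophil marker probe sets, 5 passed the floor on an array or both, with 3 ratios above 0 and 2 below, and summed intensities of 2082.3 in the allograft against 1798.3 in the autograft. Without Mcpt8, the other 12 summed to 1563.0 in the allograft against 1616.1 in the autograft. Mcpt8 was not the only marker of this list to read higher in the allograft sample. Both Hdc probe sets read 248.6 and 114.5 in the allograft, against 111.5 and 14.6 in the autograft in the same order. The pair with the lower readings was below the floor on both arrays. The 2 ratios below 0 were of mast cell proteases. Cpa3, the mast cell carboxypeptidase, stood at -0.47 (299.9 in the allograft against 416.5 in the autograft). Cma1, a mast cell chymase, stood at -0.56 (262.1 in the allograft against 386.5 in the autograft). Of 10 probe sets for the plasmacytoid dendritic cell markers Bst2, Tcf4 and Ccr9, 6 passed the floor on an array or both, with a median of -0.03 and summed intensities of 4611.1 in the allograft against 4490.7 in the autograft. The part of any of these cell types in the granzyme readings was not tested. Bone genes were read on both arrays but differed between them: of 14 bone marker probe sets 11 passed the floor on an array or both, 4 of them higher in the allograft by 2-fold or more and 1 lower by as much, with a median of -0.15. The higher ones were the probe sets of the type I collagen genes Col1a1 and Col1a2, and the lower one was Alpl, the alkaline phosphatase gene. Both Sost probe sets, for the sclerostin of osteocytes, were below the floor on both arrays. The 5 skeletal muscle marker probe sets were above the floor on both arrays, 4 with a ratio above 0 and 1 below, with a median of 0.38, between Acta1 at 1.08 and Tnnt3 at -0.22.

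The further genes of the cytotoxic pathway were taken from 7 lists. Of 28 probe sets for other cytotoxic and natural killer genes, 5 were above the floor on at least 1 array, 0 were 2-fold apart in either direction, and the median log2 ratio was 0.07. Their highest was Nkg7 and their lowest a probe set of Cd160, a receptor of cytotoxic lymphocytes. It passed the floor on the autograft array only (123.1 in the allograft against 277.9 in the autograft) and was lower in the allograft by 1.59-fold or more. The other Cd160 probe sets were below the floor on both arrays, at 41 and 15.2 in the allograft against 11.5 and 12.2 in the autograft. Klrg1, an inhibitory receptor, stood at -0.23. Fasl, Ifng, Tbx21 and Gzmm, the ligand of the Fas receptor, interferon gamma, the transcription factor T-bet and granzyme M, were below the floor on both arrays. Of 21 T cell probe sets, 2 were above the floor, both with a ratio below 0, Lat at -0.43 and a probe set of Zap70 at -0.20.

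The genes that store, activate and release granzymes are also used by other granule-bearing cells. Of their 29 probe sets 21 passed the floor on both arrays, 7 with a ratio above 0 and 14 below, none 2-fold apart, and their median was -0.09. Srgn, the serglycin core that holds granzymes in the granule, read 4906.3 in the allograft against 3013.3 in the autograft, a log2 ratio of 0.70. Ctsc, the dipeptidyl peptidase that removes the propeptide of granzymes, read 2724.8 in the allograft against 2831.3 in the autograft, a log2 ratio of -0.06. Lamp2, a lysosomal membrane protein, stood at 0.66 by its highest probe set. Lowest were Vamp8, a protein of granule fusion (-0.69), and M6pr, the receptor that sorts granzymes to the granule (-0.67 by the lower of its probe sets).

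Of 6 probe sets for granzyme inhibitors, 5 passed the floor on both arrays and 0 were 2-fold apart. Serpinb9, a member of the serpin family that inhibits granzyme B, read 440.9 in the allograft against 515.1 in the autograft, a log2 ratio of -0.22. Serpinb1a, an inhibitor of neutrophil proteases, stood at 0.93 by one probe set (1259.8 in the allograft against 663.3 in the autograft) and at 0.00 by the other. Serpinb6a stood at 0.25 and Serpinb6b at -0.43.

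Among 20 probe sets for proteins that granzymes cleave, 17 passed the floor on an array or both. Of these 1 was 2-fold higher in the allograft sample, 0 were 2-fold lower, and the median of the 17 was -0.07. The one was Hmgb2, a chromatin protein and substrate of granzyme A, at 750.6 in the allograft against 241.2 in the autograft, a log2 ratio of 1.64, and its second probe set stood at 0.77. Next was Nme1, a nucleoside diphosphate kinase, at 0.87 by one probe set and -0.11 by the other. Lowest were Dffa, the inhibitor of the caspase-activated DNase (-0.41), and Apex1, a DNA repair enzyme (-0.38 by the lowest of its probe sets).

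Of 8 probe sets for chymase locus and related granule proteases, 5 passed the floor on both arrays, 4 of them with a ratio above 0, and their median was 0.67. Besides Mcpt8 and Ctsg, Elane, the neutrophil elastase, stood at 0.40 and Cma1, a mast cell chymase, at -0.56. Of 20 probe sets for cytokines that induce granzymes, their receptors and signal transducers, 6 passed the floor on an array or both, with a median of 0.00. Il18 read 808.4 in the allograft against 501.4 in the autograft, a log2 ratio of 0.69, and Stat5a stood at 0.14 by its only probe set above the floor. Il15 and a probe set of its receptor gene Il15ra read 145.3 and 158.5 in the allograft, against 195.9 and 220.5 in the autograft, and so passed the floor on the autograft array only. The other Il15ra probe set read 49.5 in the allograft against 41.6 in the autograft, below the floor on both. Il2, Il12b and Il21 were below the floor on both arrays.

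**Figure D4:**
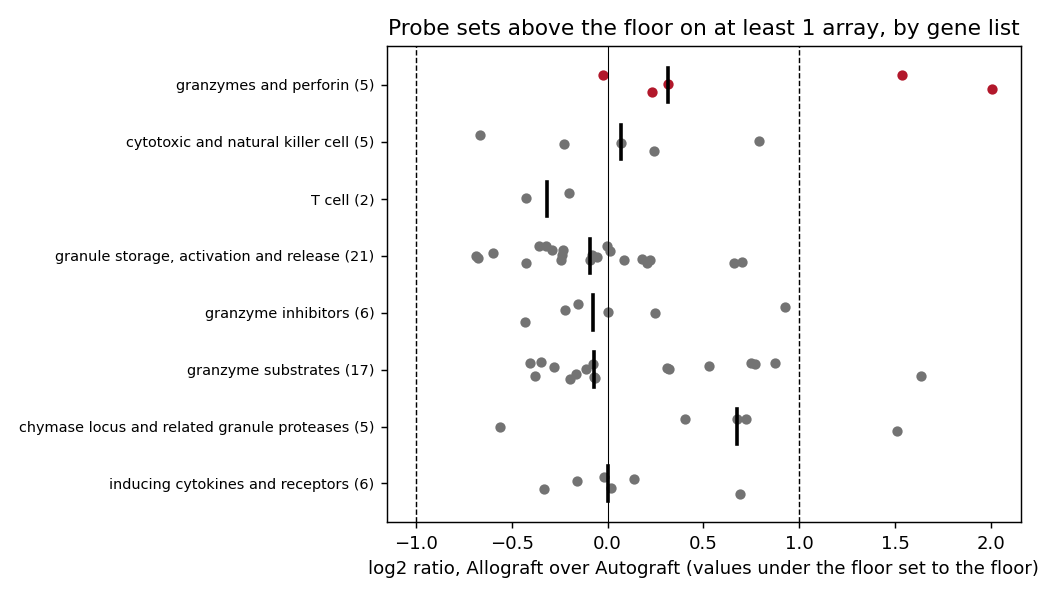
Log2 ratio of allograft over autograft, with values under the floor set to the floor, for each probe set above the floor on at least 1 array, by gene list, with the number of probe sets in brackets, medians as black bars and 2-fold differences as dashed lines. The 2 granzyme probe sets at 1.53 and 2.0 lie past the upper line, as do Hmgb2 at 1.64 among the substrates and Mcpt8 at 1.51 among the related proteases.

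The arrays had been scaled to nearly the same trimmed mean, so their closeness in overall level is no sign of like RNA quality. The median non-control intensity was 166.8 in the allograft against 184.2 in the autograft. The ratio of 3′ to 5′ intensity of the beta-actin controls was 1.77 in the allograft against 1.19 in the autograft. For the Gapdh controls it was 0.194 in the allograft against 0.0349 in the autograft, with 3′ intensities of 1576.8 in the allograft against 233 in the autograft. The part of these differences in the granzyme readings was not tested.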

How the data were processed

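Total RNA from 1 allograft and 1 autograft sample of mouse femur was measured, with groups taken from the titles in the labels. Per the deposited table, each probe set has 1 linear intensity per array. The 2% trimmed means were 500.2 for the allograft and 500.1 for the autograft, which shows that the authors had scaled them, and they were used unchanged. How the authors corrected background, and with which software, is not given in the sources used here. Gene symbols came from the platform annotation, and 64 control probe sets were left out. Values under the median of the 22626 others (175.2) were set to it before log2 ratios were taken. A call means a 2-fold ratio. No test between the graft types was made. The members, lists and settings were chosen with earlier results of these data known. Named are all members, the 5 nearest readings, and of each of the 7 pathway lists (not the cell marker lists) the 2 highest, the 2 lowest, any 2-fold apart and 9 set genes. Other genes named were chosen after their values were seen. Promoter windows (RefSeq, GRCm38.p6) were cut to the 250 bases before the start and aligned with free end gaps (match 2, mismatch -1, gap opening -4, extension -1). The counting step was tested on simulated data. Changes were planted there only in probe sets with a higher mean intensity than any member, so it does not vouch for calls at the members' levels. Python 3.11.15, numpy 2.4.6, pandas 2.3.3, statsmodels 0.14.6, Biopython 1.88 and matplotlib 3.10.9 were used.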

Additional observations from a re-analysis of the deposited data

How the results depend on the processing

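With 1 array per graft type, each value rests on a single pair of readings, and those near the floor depend on where it is set. The number of granzyme and perforin probe sets at least 2-fold higher in the allograft sample was 2, and came to 4 when the floor was put at the 25th percentile, 1 when it was put at the 75th percentile and 1 with a 4-fold threshold, where 1.38%, 0.349% and 0.0884% of all probe sets were higher. It was 2 or 3 under quantile normalization, both kinds of centring, removal of the trend with intensity, log2 of the intensity plus 16 without a floor, and a 1.5-fold threshold. The shares of all probe sets went furthest from those reported without a floor (2.43% higher, 4.17% lower) and at 1.5-fold (2.49% higher, 3.37% lower). The number at least 2-fold lower was 0 in each of these settings. Raising the floor to the 75th percentile gave a median log2 ratio of 0.75, where only the 2 probe sets built on Gzme remained, against 0.32. The log2 ratio of 1421227_at ran from 1.13 to 2.09 and that of 1450171_x_at from 0.37 to 1.64 over 7 settings, both lowest with the floor at the 75th percentile, which lies above their autograft readings. That of 1420343_at ran from -0.02 to 0.11 and was above 0 in 4 of 6 settings, so it has no settled direction. Of 48 list medians recomputed, 5 had another sign, for the granzyme inhibitor and the cytotoxic and natural killer lists. The inhibitor median was 0.59 with the 75th percentile as floor and -0.08 as reported, and that of the chymase locus list was 0.03 without a floor and 0.67 as reported. No paired analysis was possible because each graft type has 1 array.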
